A study of Mus musculus with 6 samples.

Results

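The immediate-early genes are transcribed within minutes of a stimulus, without new protein synthesis, and 10 of them were followed here in Paneth cells (PCs), the antimicrobial secretory cells of the small intestinal crypt. The members were Fos, Fosb, Jun, Junb, Jund and Atf3, which encode bZIP proteins of the AP-1 and ATF families, Egr1, which encodes a zinc-finger transcription factor, Ier2 and Ier3, and Dusp1, which encodes a phosphatase of MAP kinases. They were chosen by name and not by any measured value, each by its Ensembl identifier, and all 10 were found among the 55414 genes of the count table. All 10 also passed the filter on low counts, which left 13026 genes.

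PCs had been purified with a cell sorter from the small intestine of 6 C57BL/6J mice, each giving 1 bulk RNA library. All mice, the controls included, carried the genotype labelled IFNAR1 KO, that is, they lacked a chain of the receptor for type I interferons. Of these mice 3 received phosphate-buffered saline (PBS) and 3 received tumour necrosis factor (TNF), and cells were taken 15 h later. The dose, sex and age of the animals, the sort gates and any preparation batch were not stated in the labels. No mouse with an intact receptor, earlier time point or unsorted tissue was analysed here.

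AP-1 is a dimer. Fos proteins cannot pair with each other and bind DNA with a Jun partner, whereas Jun proteins can also pair among themselves. TNF activates the JNK and p38 MAP kinases, which phosphorylate resting factors at these promoters, and the transcripts that follow are typically short-lived, while Dusp1 and other feedback genes dampen the signal. In intestinal epithelium these genes are known as a response to growth signals, cytokines and damage. They are also known to be induced while tissue is being dissociated into single cells, so that their level in a sorted population can carry a trace of its preparation.

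The promoters of the members with the widest and among the narrowest spread are shown for orientation. The sequence 5′ of the start of the canonical GENCODE transcript was read from GRCm39, and 500 bases were searched on both strands for 6 motifs. These were the AP-1 site TGACTCA, the cyclic AMP response element TGACGTCA, the CArG box (CC, 6 bases of A or T, then GG, bound by serum response factor), an NF-kB site (GGGA, any base, then TTTCC), the TATA box TATAAA and an EGR site GCGTGGGCG. Of 21766 protein-coding genes with such a window, 2.76% held a CArG box, 1.96% the cyclic AMP response element, 24.3% a TATA box, 7.57% the AP-1 site, 0.712% the NF-kB site and 0.73% the EGR site. No 2 of the motifs marked overlapped. Each sequence below holds 300 bases, from position -310 to -11 relative to the transcript start, with matches in capitals. In Fos (chr12:85520348-85520647, + strand) the capitals mark a CArG box at -303 and a TATA box at -27. In Fosb (chr7:19043987-19044286, - strand) they mark a CArG box at -266, and in Jund (chr8:71151289-71151588, + strand), where exons of 2 long non-coding RNA genes overlap the window, a cyclic AMP response element at -214.
Fos: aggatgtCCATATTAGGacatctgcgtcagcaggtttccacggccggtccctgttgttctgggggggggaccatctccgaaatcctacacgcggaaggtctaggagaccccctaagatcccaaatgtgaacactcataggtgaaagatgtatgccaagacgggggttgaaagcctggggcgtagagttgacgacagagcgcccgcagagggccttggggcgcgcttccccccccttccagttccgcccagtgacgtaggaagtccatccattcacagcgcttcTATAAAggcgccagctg
Fosb: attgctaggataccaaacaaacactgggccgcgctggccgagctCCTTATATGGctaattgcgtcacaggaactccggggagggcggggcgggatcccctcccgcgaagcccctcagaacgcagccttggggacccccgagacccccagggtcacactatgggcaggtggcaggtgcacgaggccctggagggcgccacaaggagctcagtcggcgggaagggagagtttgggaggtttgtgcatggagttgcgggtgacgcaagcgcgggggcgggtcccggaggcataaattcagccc
Jund: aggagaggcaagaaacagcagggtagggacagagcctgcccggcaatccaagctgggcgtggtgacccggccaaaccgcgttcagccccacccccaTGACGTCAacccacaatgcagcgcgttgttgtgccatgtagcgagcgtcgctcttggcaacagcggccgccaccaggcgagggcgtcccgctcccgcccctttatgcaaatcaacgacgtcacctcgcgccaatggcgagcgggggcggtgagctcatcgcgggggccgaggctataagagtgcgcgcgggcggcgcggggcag
Among the 10 members, a CArG box was matched in 2 (Fos and Fosb), the cyclic AMP response element in 3 (Jund, Ier2 and Dusp1) and a TATA box in 2 (Fos and Junb). The AP-1, NF-kB and EGR letters were matched in 0. A match is a description of letters in this window, and the annotated start of a gene may lie away from the start used in PCs. Besides Jund, annotated exons overlapped positions -310 to -11 of Jun (Junos), Junb (its own exon) and Dusp1 (its own exon and a long non-coding RNA gene).

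The libraries held 12747484 to 17039511 counts, with 16483 to 18449 genes detected, and a count of 0 allowed at most 0.176 to 0.235 CPM (counts scaled to a common library total), taking 3 counts as the limit, for counting error only. Values below are CPM after trimmed mean of M-values (TMM) scaling, which sets libraries to a common level on the bulk of genes. TNF replicate 1 stood apart from its group. Across the tested genes, which are not independent replicates, its log2 CPM correlated at 0.883 and 0.884 with the other TNF libraries and at 0.937 to 0.945 with the PBS libraries. It stayed in its labelled group, and its weight in a result is shown by leaving it out. The PC identity of the libraries was plain, with Lyz1, the PC lysozyme, at 171735 ± 18815 CPM after PBS and 192595 ± 50799 CPM after TNF (SD, n = 3). Over 8 PC markers the sum varied more after TNF (251320 to 551534 CPM) than after PBS (340865 to 418768 CPM). Of these 8, 4 were estimated higher in TNF and 4 lower. Stromal and endothelial markers were at or near 0, with 0 to 0.667 CPM summed over 10 genes and 4 of them (Cdh5, Kdr, Col1a2 and Dcn) at 0 in every library. Immune markers summed to 22.3 to 54.7 CPM after PBS and 37.0 to 45.5 CPM after TNF over 12 genes. In bulk RNA, fewer cells of a type and less RNA per cell cannot be told apart.

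Messages of all 10 members were present in each library, and their order of abundance was taken per kilobase of exon so that genes of different length could be compared. Jund was first at 52.6 ± 12.02 CPM per kilobase (SD over 6 libraries), above the next gene in 6 of 6 libraries. Ier2 (31.7 ± 10.5) and Jun (29.7 ± 9.08) followed and were not separated by their spread, nor were Fos (21.7 ± 13.8) and Junb (20.1 ± 4.77), since Fos was above Junb in only 3 of 6 libraries. Egr1 came next at 10.2 ± 4.46, below Junb in 6 of 6 libraries and above Fosb (6.25 ± 6.09) in 6 of 6. Dusp1 (4.05 ± 1.88), Ier3 (2.34 ± 1.44) and Atf3 (2.09 ± 1.11 CPM per kilobase) were the lowest, and Ier3 exceeded Atf3 in 3 of 6 libraries. Intronless Jund, the AP-1 gene usually found in resting cells, was thus the most abundant message of the group. The 2 genes at the lower end changed places between the groups, with means of 1.42 (Ier3) and 2.25 (Atf3) CPM per kilobase after PBS and 3.27 and 1.94 after TNF.

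The comparison of the design asked whether these genes differed 15 h after TNF. With edgeR's quasi-likelihood test and Benjamini-Hochberg adjustment over all 13026 genes, 0 of 10 members passed an adjusted p of 0.05, where the background was 0% of all genes (0 called). At an unadjusted p under 0.05 there was 1 member, Ier3, against 12.3% of all genes (1596). The libraries of the 2 groups did not overlap for 1 member, again Ier3, against 16.9% of all genes. In 3 members (Jun, Ier3 and Dusp1) the estimate was higher in TNF, against 50% of all genes, and in 7 it was lower, with a median log2 fold change of -0.17 beside -5.87e-04 over all genes tested. DESeq2, limma-voom and limma-voom with sample weights also gave 0 members at 5%. Over all genes DESeq2 called 242 (2.06%), limma-voom 0 and sample weights 1501 (11.5%). A list of 10 genes is too short to tell its share from these.

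**Figure D1:**
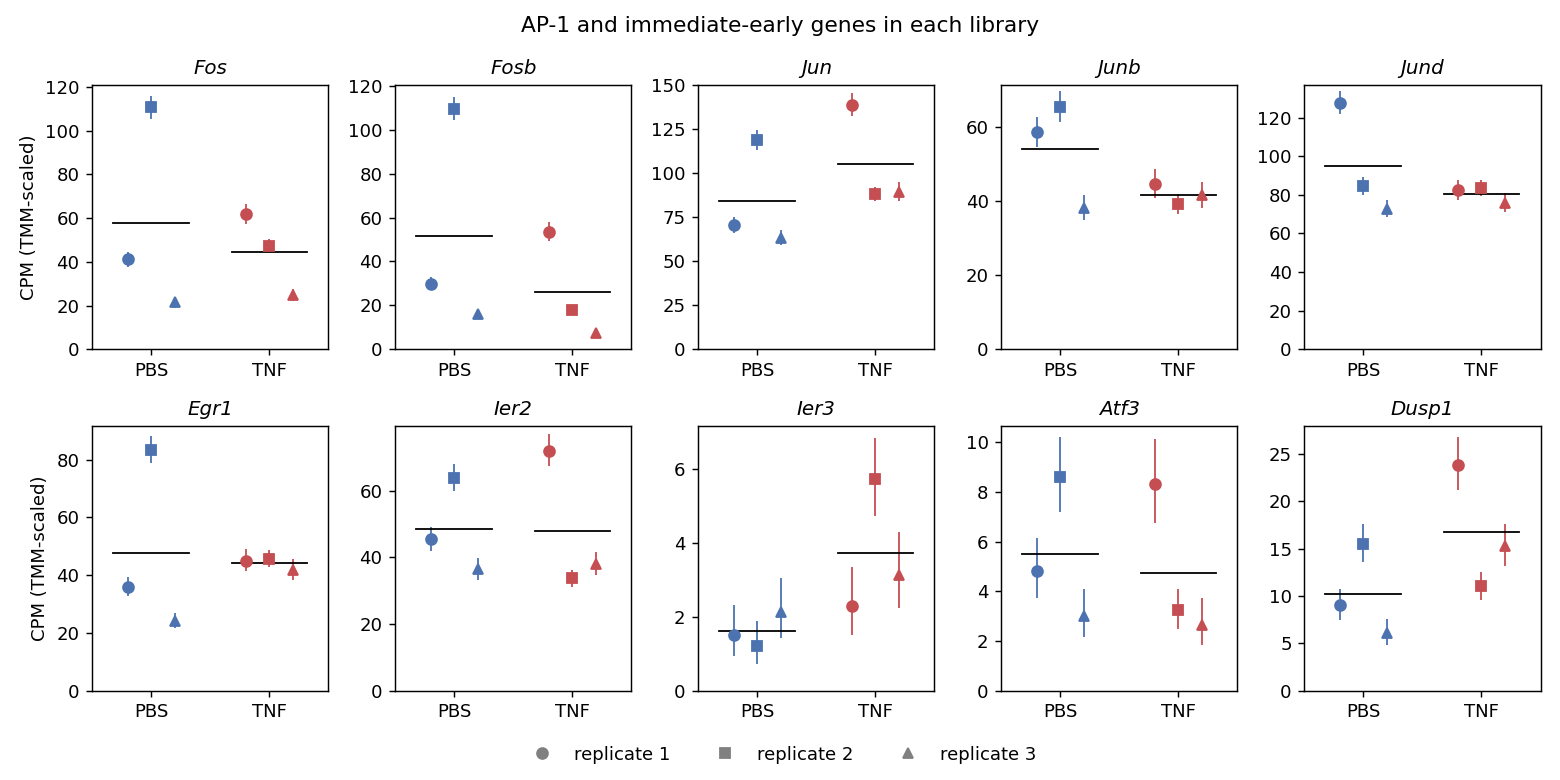
CPM (TMM-scaled, linear axes from 0) of each of the 10 genes in PBS (blue) and TNF (red) libraries. Symbols mark the replicate, vertical lines the exact 95% Poisson interval of the count (counting error only) and horizontal lines the group mean. PBS replicate 2 is the highest PBS library for 8 of the 10 genes, and the groups are apart only for Ier3.

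Fos and Fosb, the inducible partners of Jun, had the widest spread. Fos (ENSMUSG00000021250, chromosome 12, 85520658 to 85524047) was at 41.1, 111 and 21.5 CPM across PBS replicates 1 to 3 and at 61.7, 47.2 and 24.7 CPM across TNF replicates 1 to 3. The highest and the lowest library were both controls, and the 3 TNF libraries lay between them. Its group means were 57.7 ± 46.8 and 44.5 ± 18.6 CPM (SD, n = 3), for a log2 fold change of -0.37 (SE 0.54, 95% interval -1.59 to 0.84, edgeR adjusted p 0.812). Without PBS replicate 2 the sign turned, to 0.50 (adjusted p 0.814).

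Fosb (ENSMUSG00000003545, chromosome 7, 19036621 to 19043976) was at 29.9, 109 and 16.1 CPM after PBS and 53.5, 17.7 and 7.41 CPM after TNF. Within each group the order of replicates was that of Fos, but the groups lay otherwise to each other. The lowest library was TNF replicate 3 for Fosb and PBS replicate 3 for Fos. TNF replicate 2 was below PBS replicate 1 for Fosb and above it for Fos. TNF replicates 2 and 3 were near or below the lowest control, whereas TNF replicate 1 was above 2 of the 3 controls. The log2 fold change was -0.99 (SE 0.78, 95% interval -2.73 to 0.76, edgeR adjusted p 0.636), which became 0.19 (adjusted p 0.978) without PBS replicate 2 and -2.01 (SE 0.67, adjusted p 0.0715) without TNF replicate 1. Fosb was also the only member past 5% under any of the 15 alternatives run, with no filter on low counts (-1.01, SE 0.28, adjusted p 0.0152, where 2.94% of all genes passed and 0.849% passed as lower). Fosb itself passed that filter, with 92 to 1640 counts per library. Its estimate was near that with the filter, and the call came with the smaller SE (0.28 beside 0.78). Without the filter the SEs of Fos, Fosb, Jun, Junb, Jund, Egr1 and Ier2 all lay at 0.26 to 0.28, beside 0.23 to 0.78 with it. Those of Dusp1, Atf3 and Ier3 were 0.31, 0.47 and 0.63. The SE behind the Fosb call thus did not follow its wide spread between libraries.

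The Jun genes were steadier. Jun (ENSMUSG00000052684, chromosome 4, 94937271 to 94940459), the partner that Fos proteins bind, was at 70.3, 119 and 63.3 CPM after PBS and 139, 88.0 and 89.4 CPM after TNF. All 3 TNF libraries exceeded PBS replicates 1 and 3, and PBS replicate 2 lay within the TNF range (log2 fold change 0.32, SE 0.30, 95% interval -0.35 to 1.00, edgeR adjusted p 0.695). Its estimate stayed above 0 over all 6 libraries and in all 15 alternatives, from 0.09 without TNF replicate 1 to 0.65 without PBS replicate 2, with adjusted p-values of 0.540 or more.

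Junb (ENSMUSG00000052837, chromosome 8, 85701113 to 85705359), which can temper the activity of Jun, had 58.6, 65.4 and 38.1 CPM after PBS and 44.6, 39.2 and 41.6 CPM after TNF. The TNF libraries were close together, and 2 of 3 controls lay above all of them (log2 fold change -0.37, SE 0.23, 95% interval -0.90 to 0.15, edgeR adjusted p 0.546). Its estimate was below 0 in every fit, from -0.61 without PBS replicate 3 to -0.22 without PBS replicate 2.

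Jund (ENSMUSG00000071076, chromosome 8, 71151599 to 71153265), the constitutive Jun gene, had 128, 84.4 and 72.9 CPM after PBS and 82.4, 83.4 and 75.7 CPM after TNF. Here PBS replicate 1 was the high library, and PBS replicate 2 was level with the TNF libraries. The log2 fold change of -0.24 (SE 0.25, 95% interval -0.79 to 0.32, edgeR adjusted p 0.735) became 0.04 without PBS replicate 1.

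The remaining transcription factors were Egr1 and Atf3. Egr1 (ENSMUSG00000038418, chromosome 18, 34992876 to 34998049), which is induced through serum response factor, was at 35.9, 83.5 and 24.1 CPM after PBS and 45.0, 45.7 and 41.7 CPM after TNF. The 3 TNF libraries differed by less than 1.10-fold while the controls differed 3.46-fold, so the TNF values lay inside the control range (log2 fold change -0.12, SE 0.39, 95% interval -0.999 to 0.77, edgeR adjusted p 0.928). Without PBS replicate 2 the estimate was 0.55 (adjusted p 0.681), with all 3 TNF libraries above both remaining controls. Atf3 (ENSMUSG00000026628, chromosome 1, 190902493 to 190950241), a stress-induced repressor of the ATF family, was at 4.83, 8.61 and 3.01 CPM after PBS and 8.33, 3.23 and 2.66 CPM after TNF. PBS replicate 2 and TNF replicate 1 were its 2 high libraries, 1 in each group (log2 fold change -0.22, SE 0.54, 95% interval -1.44 to 1.00, edgeR adjusted p 0.896).

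The other members were Ier2, Dusp1 and Ier3. Ier2 (ENSMUSG00000053560, chromosome 8, 85387960 to 85389483), a small nuclear protein gene, was at 45.4, 63.9 and 36.4 CPM after PBS and 72.1, 33.7 and 38.1 CPM after TNF. Its group means were nearly equal, at 48.6 ± 14.1 and 48.0 ± 21.0 CPM (log2 fold change -0.02, SE 0.33, 95% interval -0.76 to 0.72, edgeR adjusted p 0.985), and TNF replicate 1 and PBS replicate 2 were again the high libraries. Dusp1 (ENSMUSG00000024190, chromosome 17, 26724564 to 26781102), which inactivates JNK and p38, was at 9.02, 15.5 and 6.10 CPM after PBS and 23.9, 11.01 and 15.3 CPM after TNF. All 3 TNF libraries were above PBS replicates 1 and 3, and only TNF replicate 1 was clearly above PBS replicate 2 (log2 fold change 0.71, SE 0.39, 95% interval -0.18 to 1.60, edgeR adjusted p 0.493). Dusp1 was higher in TNF in every fit, from 0.38 without TNF replicate 1 to 1.14 without PBS replicate 2 (SE 0.41, adjusted p 0.677).

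Ier3 (ENSMUSG00000003541, chromosome 17, 36132568 to 36133815), known as a target of NF-kB that affects cell survival, had the largest estimate. It was at 1.51, 1.20 and 2.13 CPM after PBS and 2.29, 5.72 and 3.14 CPM after TNF, from 21, 18 and 29 counts and 27, 117 and 39 counts. All TNF libraries were above all controls, but TNF replicate 1 (exact Poisson interval 1.51 to 3.34 CPM, counting error only) could not be told from PBS replicate 3 (1.43 to 3.06 CPM) at this depth. With library-size scaling alone these 2 libraries changed places, at 1.83 and 2.27 CPM. The log2 fold change was 1.21 (SE 0.53, 95% interval 0.02 to 2.40, unadjusted p 0.0466, edgeR adjusted p 0.402), and it was 0.72 (adjusted p 0.781) without TNF replicate 2 and 1.48 (adjusted p 0.0832) without TNF replicate 1. It was also the 1 member whose lowest library was PBS replicate 2.

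**Figure D2:**
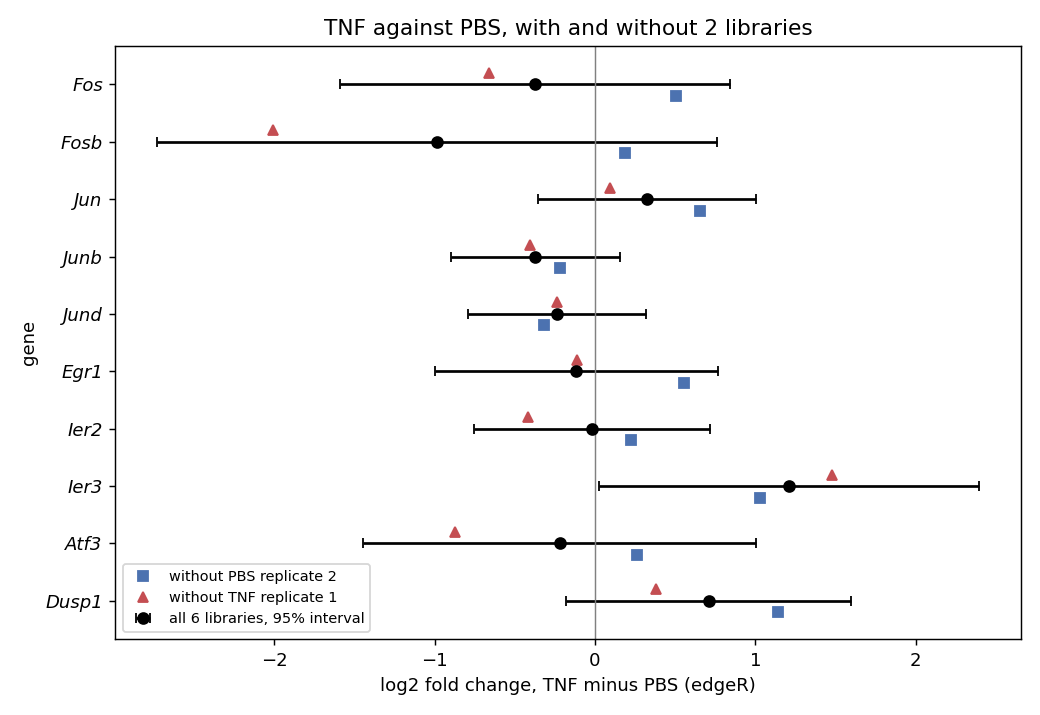
Log2 fold change (TNF minus PBS, edgeR) of each gene with its 95% interval over all 6 libraries (black), and the estimate without PBS replicate 2 (blue squares) or without TNF replicate 1 (red triangles). For Fos, Fosb, Egr1, Ier2 and Atf3 the blue square lies on the other side of 0, and only the interval of Ier3 leaves out 0.

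The direction of the group depended on single libraries. Leaving out PBS replicate 2 turned the sign of Fos, Fosb, Egr1, Ier2 and Atf3, and moved the median log2 fold change of the 10 members from -0.17 to 0.38. Leaving out TNF replicate 3 brought that median to -0.00139 and turned Ier2 and Atf3, and leaving out TNF replicate 2 turned Ier2. Leaving out TNF replicate 1 moved the median to -0.32. In that fit 0 of 10 members passed 5%, beside 14.5% of all 13660 genes tested, shares that 10 genes cannot tell apart. The smallest adjusted p-values among members were then those of Fosb (0.0715) and Ier3 (0.0832), in opposite directions.

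The spread between libraries of the same treatment was wide for these genes. On the log2 CPM scale the median SD of the 10 members was 0.58 within PBS and 0.57 within TNF, beside 0.29 and 0.41 over all tested genes. Within PBS, 10 of 10 members had an SD above the median of all genes, from 0.38 (Ier3) to 1.41 (Fosb), and the SD of Fosb was at percentile 96.9 of all genes, that of Fos (1.18) at 95.1 and that of Egr1 (0.91) at 91.3. Within TNF the pattern was mixed, with 6 of 10 above the median. Fosb (1.42), Atf3 (0.86) and Fos (0.68) remained wide, while Egr1 (0.07), Jund (0.08) and Junb (0.09) were among the narrowest genes, at percentiles 2.88, 3.34 and 4.84. These SDs come from 3 libraries each, and the difference in spread between the groups was not tested. The counts behind the Fos values, 293 to 1656 per library, make the counting error small beside this spread.

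**Figure D3:**
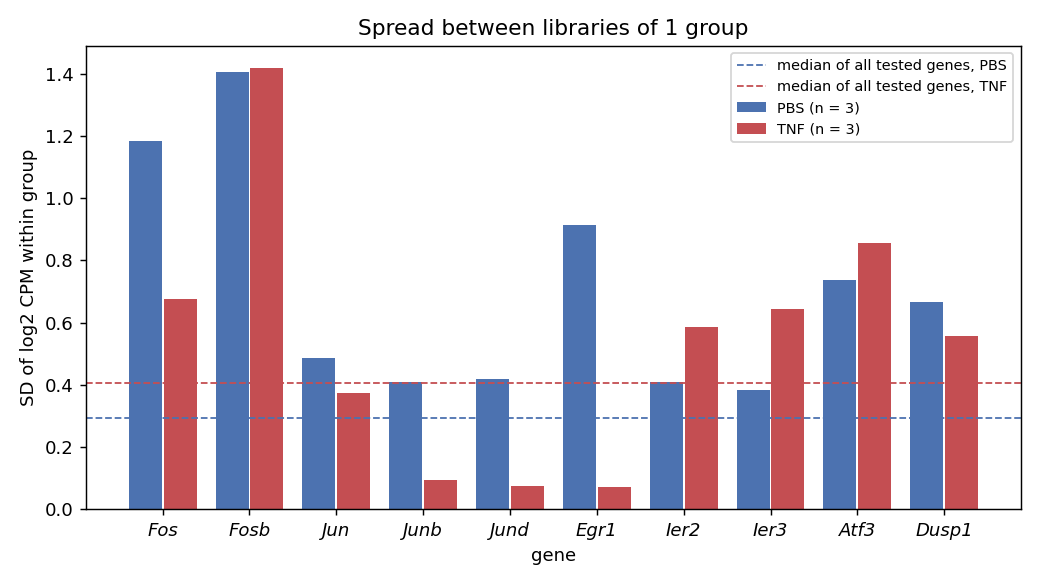
SD of log2 CPM between the 3 libraries of each group for the 10 genes (bars from 0), with dashed lines at the median SD of all 13026 tested genes in PBS (0.29) and TNF (0.41). All PBS bars stand above the PBS line, while Junb, Jund and Egr1 have TNF bars under 0.10.

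PBS replicate 2 held the high control value for most members. It was the highest PBS library for 8 of 10 members, against 32% of all tested genes, and the highest of all 6 libraries for 5 (Fos, Fosb, Junb, Egr1 and Atf3), against 16.2%. With library-size scaling alone it was the highest of 6 for 7 members, against 23.7% of genes. Relative to the geometric mean of PBS replicates 1 and 3 its level was 4.97-fold for Fosb, 3.70-fold for Fos, 2.83-fold for Egr1, 2.21-fold for Atf3 and 2.07-fold for Dusp1. These 5 members were at least 2-fold higher there, as were 7.4% of all genes. The excess was graded across the group, at 1.78-fold for Jun, 1.57-fold for Ier2 and 1.38-fold for Junb, with Jund at 0.876-fold and Ier3 at 0.692-fold. PBS replicate 2 was singled out after its values were seen, so these figures describe it and test nothing.

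On the TMM scale TNF replicate 1 was the second library with high values. It held the highest level of Jun, Ier2 and Dusp1 (3 of 10 members, against 17.5% of all genes), and came next to PBS replicate 2 for Fos, Fosb and Atf3. With library-size scaling alone it was the highest for 1 member, against 5.08% of all genes. The 10 members then summed to 424 CPM in TNF replicate 1, 450 CPM in TNF replicate 2 and 406 CPM in PBS replicate 1. Fos was then lower in TNF replicate 1 (49.2 CPM) than in TNF replicate 2 (56.6 CPM), so this rank depended on the scaling. PBS replicate 3 was the lowest of the 6 libraries for 6 members (Fos, Jun, Junb, Jund, Egr1 and Dusp1), against 10.6% of all genes, so that the 2 ends of the range for Fos, Junb, Jund and Egr1 were both PBS libraries.

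A ratio within a library does not depend on how libraries are scaled. Per length of exon, the summed counts of Fos and Fosb relative to those of Jun, Junb and Jund were 0.180, 0.558 and 0.147 for PBS replicates 1 to 3, and 0.311, 0.243 and 0.128 for TNF replicates 1 to 3. The order of libraries was the same as for Fosb itself at its upper end, with PBS replicate 2 first and TNF replicate 1 second. Fos relative to Jund was 0.228, 0.925 and 0.209 in PBS and 0.529, 0.400 and 0.231 in TNF, so in PBS replicate 2 the inducible message nearly reached the level of the constitutive one.

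Other cell types and library properties were set beside this pattern, and their part in it was not tested. The summed PC markers were lower in PBS replicate 2 (340865 CPM over 8 genes) than in PBS replicates 1 and 3 (418768 and 391737 CPM). Across TNF replicates 1 to 3 they summed to 551534, 251320 and 403860 CPM. Tuft cell markers summed to 373, 1004 and 1293 CPM across PBS replicates 1 to 3, and 381, 830 and 449 CPM after TNF. PBS replicate 2 was thus between the other controls for tuft markers. Enterocyte markers summed to 238, 216 and 220 CPM after PBS, and to 287, 59.0 and 53.6 CPM after TNF. Goblet cell markers summed to 4829 to 5124 CPM after PBS and 4003 to 4905 CPM after TNF, enteroendocrine markers to 48.9 to 166 and 38.0 to 107 CPM, and stem cell markers to 2554 to 3144 and 797 to 4692 CPM. PBS replicate 2 was the lowest PBS library for the PC, enterocyte and goblet cell sums, the highest for the stromal sum (0.667 CPM) and the middle one for the tuft, enteroendocrine, stem and immune (42.6 CPM) sums. With library-size scaling alone it was the highest control for the enterocyte (239 CPM) and stem cell (3221 CPM) sums and the middle one for goblet cells (5345 CPM), so these orders depended on the scaling.

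The same libraries were read in a list of 31 other immediate-early genes, of which 28 were tested and 1 (Ccn2) was at 0 throughout. Relative to the PBS mean on the log2 scale, the median of this list was 0.08, 0.21 and -0.16 for PBS replicates 1 to 3, and 0.22, 0.14 and -0.09 for TNF replicates 1 to 3. It was thus about as high in TNF replicate 1 as in PBS replicate 2, where the median of the 10 members was 0.63. PBS replicate 2 was the highest of the 6 libraries for 9 of the 28, against 16.2% of all genes, and at least 2-fold above the other controls for 3, against 7.4%. Those 3 were Klf2 (2.48-fold), Zfp36 (2.07-fold) and Plk3 (2.03-fold), named after their values were seen. Zfp36, whose product destabilises AU-rich messages, was at 21.6, 33.7 and 12.1 CPM after PBS and 24.5, 23.6 and 16.4 CPM after TNF, the same order of controls as Fos.

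Between the treatments, 14 of the 28 other immediate-early genes were estimated higher in TNF and 14 lower, with a median log2 fold change of -0.02, and 0 passed 5%. At an unadjusted p under 0.05, 3 were higher (8.25% of all genes were) and 1 was lower (4% of all genes). Rhob, a small GTPase gene, was at 15.1, 14.8 and 17.7 CPM after PBS and 26.3, 41.7 and 52.2 CPM after TNF. The TNF libraries were all above the controls, TNF replicate 1 included (log2 fold change 1.33, SE 0.27, edgeR adjusted p 0.270). Nfkbia, the NF-kB inhibitor, was at 38.8 ± 9.84 CPM after PBS and 69.3 ± 31.7 CPM after TNF (a log2 change of 0.83, SE 0.33, adjusted p 0.368), and Cebpb at 3.42 ± 0.659 and 6.09 ± 1.17 CPM (0.83, SE 0.36, adjusted p 0.398). Socs3, a feedback inhibitor of cytokine receptors, was at 34.2, 24.6 and 22.5 CPM after PBS and 7.56, 5.09 and 20.5 CPM after TNF (-1.30, SE 0.46, edgeR adjusted p 0.329). Without TNF replicate 1, 5 of the 28 passed 5%, 3 as higher (9.1% of all genes) and 2 as lower (5.4%). Rhob (1.58, SE 0.20, adjusted p 5.51e-04), Nfkbia (1.10, SE 0.27, adjusted p 0.0190) and Klf6 (0.84, SE 0.21, adjusted p 0.0221) were higher, and Nr4a2 (-1.21, SE 0.35, adjusted p 0.0427) and Btg2 (-0.64, SE 0.20, adjusted p 0.0497) lower. Klf6, Nr4a2 and Btg2 are named after their values were seen.

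Of 13 other bZIP partners of AP-1, 7 were tested and 0 passed 5%, with 2 estimated higher and 5 lower (median log2 fold change -0.23). Mafg, a small Maf protein gene, was at 9.31, 11.2 and 9.55 CPM after PBS and 9.86, 25.2 and 21.5 CPM after TNF (a log2 change of 0.92, SE 0.34, edgeR adjusted p 0.337). TNF replicate 1 was level with the controls, and without it Mafg passed (1.24, SE 0.22, adjusted p 0.00393), as did 9.1% of all genes in that direction. Atf2, a resting partner of Jun, did not pass, at 45.4 ± 5.07 and 36.4 ± 3.77 CPM (-0.32, SE 0.19, adjusted p 0.528), nor did Atf7 (-0.43, SE 0.26) or Maf (-0.998, SE 0.59). TNF values of 3 of the 7 (Atf2, Maf and Fosl2) lay below all controls, as did those of 7.82% of all genes tested. Those of 1 (Maff, named after its values were seen) lay above all controls, as did those of 1182 of all 13026 genes tested. Fosl2, named after its values were seen, was the most abundant of these genes at 57.6 ± 2.45 CPM after PBS and 49.0 ± 3.77 CPM after TNF, and it showed none of the excess of Fos and Fosb in PBS replicate 2 (57.8, 55.1 and 59.96 CPM across PBS replicates 1 to 3).

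The signalling genes and resting factors upstream of these promoters were also measured. Of 20 genes of the MAP kinase cascades below the TNF receptor, all tested, 0 passed 5%. Without TNF replicate 1 Map2k3 was higher (0.73, SE 0.20, adjusted p 0.0329) and Map2k6 lower (-1.45, SE 0.21, adjusted p 0.00112). In that fit 9.1% of all genes passed as higher and 5.4% as lower. Both encode activators of p38, and Map2k3 is named after its values were seen. Map2k6 was at 33.3, 36.8 and 40.7 CPM after PBS and 36.3, 13.5 and 13.1 CPM after TNF, with TNF replicate 1 among the controls. Braf was below all controls in the TNF libraries (31.3 ± 4.65 and 22.4 ± 3.11 CPM, log2 fold change -0.49, SE 0.21, edgeR adjusted p 0.404), while Tab1 (-0.61, SE 0.32) and Map2k4 (0.43, SE 0.27) overlapped. Of 9 resting factors 0 passed. Elk4 (0.65, SE 0.32), Mrtfb (0.60, SE 0.28), Atf1 (0.59, SE 0.25) and Elk3 (0.61, SE 0.52), cofactors of serum response factor and a CREB relative, had positive log2 fold changes at edgeR adjusted p-values of 0.395 to 0.665. Without TNF replicate 1 Elk4 (0.99), Mrtfb (0.87) and Atf1 (0.83) passed, with adjusted p-values of 0.00423, 0.0140 and 0.0141, where 9.1% of all genes passed as higher.

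Among 14 other MAP kinase phosphatases and feedback inhibitors, 12 were tested and 0 passed 5%. Dusp4 was at 2.91 ± 0.499 CPM after PBS and 5.16 ± 1.33 CPM after TNF without overlap (log2 fold change 0.82, SE 0.39, edgeR adjusted p 0.432). Dusp6, which acts on ERK, had 31.8 ± 5.92 and 43.1 ± 12.3 CPM (0.44, SE 0.26), Dusp16 44.5 ± 3.65 and 32.8 ± 9.42 CPM (-0.44, SE 0.24) and Dusp10 2.01 ± 0.415 and 1.08 ± 0.591 CPM (-0.87, SE 0.62). Without TNF replicate 1 Dusp6 passed as higher (0.68, adjusted p 0.0484) and Dusp16 as lower (-0.68, adjusted p 0.0400), beside 9.1% and 5.4% of all genes.

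Heat-shock genes, which like the immediate-early genes are known to respond to dissociation, had another order over the 6 libraries than the members. Among the controls alone, the summed levels of both lists had the same order, with PBS replicate 2 highest and PBS replicate 3 lowest. Of 12 listed, 10 were tested, 9 were estimated higher in TNF (median log2 fold change 0.31) and 0 passed 5%. Their summed level was 696, 706 and 613 CPM across PBS replicates 1 to 3 and 858, 908 and 834 CPM after TNF. The groups did not overlap on the TMM scale, but with library-size scaling they did, at 666, 781 and 654 CPM after PBS and 684, 1089 and 763 CPM after TNF. PBS replicate 2, where Fos and Fosb peaked, was the highest library for 0 of the 10, against 16.2% of all genes. That count says little about a control, since 9 of the 10 were estimated higher in TNF. Among the controls alone PBS replicate 2 was the highest for 6 of the 10, against 32% of all genes. Hspa8, the constitutive HSP70 gene, was at 404, 414 and 328 CPM after PBS and 498, 577 and 540 CPM after TNF (a log2 change of 0.50, SE 0.24, edgeR adjusted p 0.439). Dnajb1, an HSP70 co-chaperone gene, was at 20.6, 30.6 and 27.99 CPM after PBS and 38.2, 43.4 and 45.3 CPM after TNF (0.68, SE 0.22, adjusted p 0.297), and passed without TNF replicate 1 (0.77, adjusted p 0.0340), where 9.1% of all genes passed as higher. Hspa1b was at 0.361, 1.20 and 0.735 CPM after PBS and 6.97, 5.58 and 1.77 CPM after TNF (2.62, SE 0.67, edgeR adjusted p 0.270), a value that is uncertain because Hspa1a is a near-identical copy. Dnajb4 was at 9.42 ± 0.752 and 13.9 ± 1.66 CPM (0.56, SE 0.23, adjusted p 0.383).

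**Figure D4:**
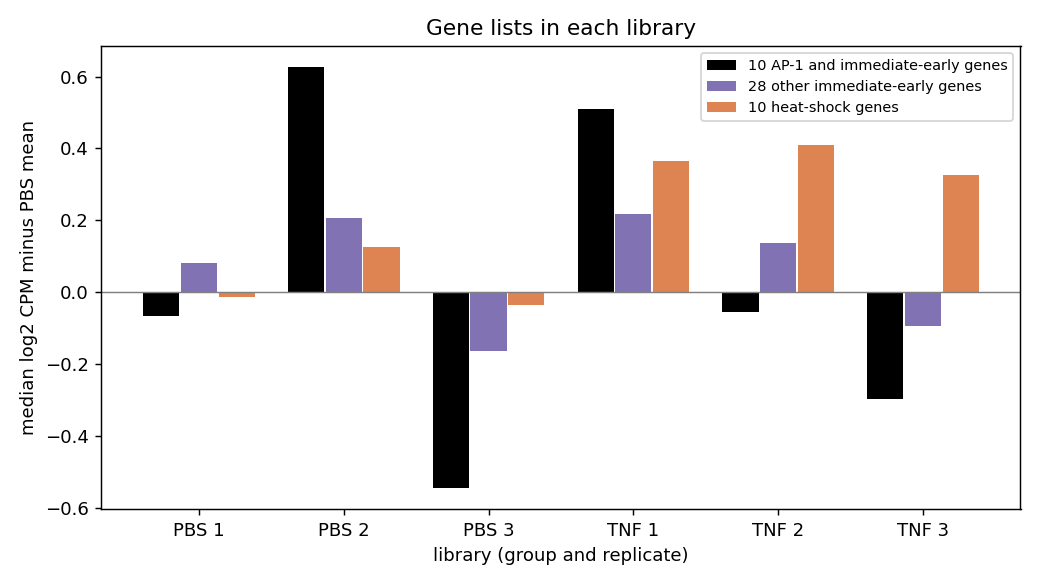
Median log2 CPM relative to the PBS mean (bars from 0) in each library for the 10 AP-1 and immediate-early genes (black), 28 other immediate-early genes (purple) and 10 heat-shock genes (orange). The black bar is highest in PBS replicate 2 (0.63) and TNF replicate 1 (0.51), while the orange bars are at 0.33 to 0.41 in all 3 TNF libraries.

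Exons of 4 members overlap counted genes on the opposite strand, namely Jun (Junos), Junb (Prdx2), Jund (Gm11175) and Dusp1 (Ergic1). Whether the counting used strand was not stated, so reads of these pairs cannot be told apart. Fos, Fosb, Egr1, Ier2 and Atf3 had no such overlap in the annotation, and Ier3 overlapped only a gene that was not counted.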

How the data were processed

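Per the labels, the authors made libraries from total RNA of sorted PCs for the Element AVITI and read them from 1 end. The deposited table holds whole-number counts per Ensembl gene, 1 column per library. The submitters' processing notes name FastQC, Trimmomatic 0.39, STAR 2.7.10a, DESeq2 and the build mm39, while the annotation, the counting tool, strand use and the handling of shared reads are not given in the sources used. Symbols, exon lengths and positions (1-based) came from GENCODE vM39 on GRCm39, the same assembly, and 54749 of 55414 identifiers matched.

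The low-count filter was filterByExpr of edgeR (minimum count 10 and minimum total 15). TNF was compared with PBS over all 6 libraries with the two-sided quasi-likelihood test of edgeR 4.0.16 in R 4.3.3, with TMM factors and group as the only term. The SE was obtained from the log2 fold change and the F statistic, and the 95% interval uses the test's degrees of freedom. Log2 CPM used a prior count of 2. Named were all 10 members, up to 4 tested genes of each pathway list with the smallest unadjusted p, and Lyz1, with marker lists given as sums. Genes outside this rule are marked as named after their values were seen. Members, lists and alternatives were chosen with earlier results of these data known. The fitting code was tested on simulated data. Alternatives were other scalings and filters, each library left out, a replicate block, DESeq2 1.42.0 and limma 3.58.1 (voom). Each library came from a different mouse, per the series' design.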

Additional observations from a re-analysis of the deposited data

How the results depend on the processing

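Of 149 estimates of single members under alternatives, 136 kept their direction and their side of the 5% threshold, 1 gained a call (Fosb without a low-count filter) and 12 reversed. The count of genes past 5% was 690 without a low-count filter, 242 with DESeq2 and 1501 with sample weights, where TNF replicate 1 had the lowest weight (0.331), and it ranged from 0 to 1980 when 1 library was left out, the highest without TNF replicate 1. Members past 5% numbered 1 without a filter and 0 in every leave-one-out fit. Genes of the 6 pathway lists past 5% numbered 4 without a filter, 2 with DESeq2, 10 with sample weights and 0 to 14 with 1 library left out, the highest without TNF replicate 1. The median log2 fold change of the members ranged from -0.46 (without PBS replicate 3) to 0.38 (without PBS replicate 2), and their median within-group SD from 0.50 to 0.66, in the leave-one-out fits.

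Without PBS replicate 2 the log2 fold change reversed for Fos (0.50), Fosb (0.19), Egr1 (0.55), Ier2 (0.23) and Atf3 (0.26), each the highest of its leave-one-out values, whose lowest were -0.81, -2.01, -0.48, -0.42 and -0.87. Egr1 also reversed with limma-voom (0.081), with sample weights (0.18) and with the replicate block (0.083). Ier2 reversed without TNF replicate 2 (0.15) or TNF replicate 3 (0.13), Atf3 without TNF replicate 3 (0.067) and Jund without PBS replicate 1 (0.037, against a lowest value of -0.44 without PBS replicate 3). The cause was not tested. The replicate number as a block left 0 genes past 5%, with 1395 at an unadjusted p under 0.05 beside 1596 without it. Over all genes, same-numbered libraries did not deviate together (correlations over genes of -0.01, -0.07 and 0.03). With 3 libraries a group, this cannot tell whether a batch was shared by number. Among the members, replicate 3 had the lowest summed level in both groups (284 CPM after PBS and 340 CPM after TNF). With scaling by library size the median log2 fold change over all genes was -0.11, and no member changed sign. With 3 libraries a group and SDs this wide, the 95% intervals of Fos and Fosb span changes of more than 2-fold in at least 1 direction.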
